A study of Homo sapiens with 4 samples.

Results

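The 24 h response of the SW1736 cell line to dihydrotanshinone was read from 12719 genes, out of 26485 gene identifiers in the tables. They are all genes whose mean over the vehicle and the treated SW1736 library was at least 1 TPM, a unit that gives each gene its share of a library's transcripts per length, and the other 13766 lay below that level. Each gene is described by its TPM in both libraries and by its fold, log2((DHT + 1)/(DMSO + 1)), a scale that understates the fold of low genes. Here DHT stands for dihydrotanshinone, a tanshinone of Salvia root, and not for the androgen of the same abbreviation.

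SW1736 and 8505C are established lines derived from anaplastic thyroid cancer. Both were grown in RPMI-1640 with 10% serum and carried no labelled genetic change or transgene. SW1736 cells received either the vehicle, DMSO, or 1.5 µM DHT, and RNA was taken after 24 h. 8505C cells were handled in the same way and serve as the second line. The series asks how DHT acts on such cells, and each line and treatment is 1 library, so the SW1736 difference has no replicate check and no test. Every count below describes these 2 libraries, and every difference from 8505C is given without a test.

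Several stress pathways meet in the mRNA of a treated cell. Growth factor and stress kinases induce immediate early genes, whose products (FOS, JUN, EGR1) are transcription factors, and these in turn raise phosphatases and other inhibitors that close the signal down. Misfolded protein frees the heat shock factor, which raises chaperone genes. Phosphorylation of the initiation factor eIF2 lowers protein synthesis while it lets ATF4 raise genes such as DDIT3, and oxidants release NRF2, which raises detoxifying enzymes. Many of these mRNAs are short-lived, so that their level follows synthesis and decay closely.

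With DHT, 515 genes stood at least 2-fold above their DMSO level (4.05% of the genes compared) and 2037 at least 2-fold below it (16.0%). The larger folds lay on the other side, since 187 genes passed 4-fold upwards (1.47%) and 77 downwards (0.605%), and 41 and 2 passed 16-fold (0.322% and 0.0157%). The whole distribution was displaced: the median fold over all genes was -0.43, with quartiles of -0.82 and -0.05, and 77.7% of genes lay below 0. TPM sums to a fixed total, so a gain of abundant mRNAs appears as a loss of the rest, and folds below are to be read against that median. Centred on the median gene, 821 genes were 2-fold higher (6.45%) and 572 lower (4.50%), so that 58.9% of the calls were higher instead of 20.2%. On the deposited FPKM the split was 473 higher and 777 lower, or 37.8% higher. Centring adds the same amount to every fold, so it can only add higher calls and remove lower ones, and counts of list members are given below on both scales. The higher genes together grew from 0.966% to 5.10% of all TPM, and the lower genes went from 6.59% to 2.53%.

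**Figure D1:**
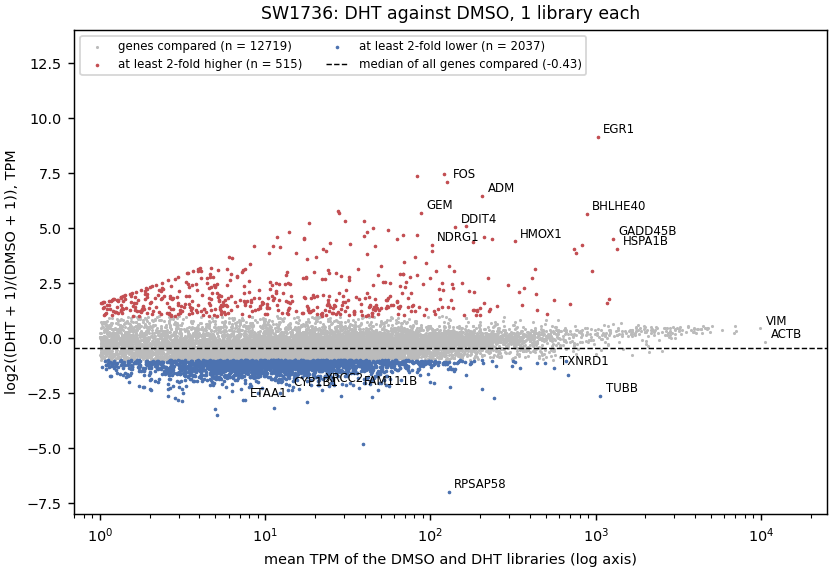
Each point is 1 of the 12719 genes, with its mean TPM over both SW1736 libraries on a log axis (x) and its log2 fold with DHT (y). The dashed line marks the median of all genes at -0.43, the 515 genes at least 2-fold higher are red and the 2037 at least 2-fold lower are blue, and the higher genes reach folds beyond those of nearly all lower ones.

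Depths of 3.67 Gb (DMSO) and 3.85 Gb (DHT) of aligned bases were obtained from the ratio of coverage to FPKM. The number of reads is not known, and counting error is therefore not given. The thyroid origin of SW1736 was visible in part: PAX8, a thyroid transcription factor, stood at 87.1 and 117 TPM without and with DHT, FOXE1 at 60.6 and 22.3 TPM and HHEX at 28.3 and 33.3 TPM, whereas NKX2-1 and TSHR were listed at 0 in both libraries and TG at 0 and 0.0587 TPM. Of the 8 thyroid markers 4 reached a mean of 1 TPM, and the 8 summed to 176 TPM with DMSO and 175 with DHT. KRT7, KRT8, KRT18 and KRT19 were present, EPCAM was listed at 0 and CDH1 was at 0.0631 and 0.0526 TPM, beside VIM, CDH2 and FN1. None of 5 endothelial and 3 fibroblast markers reached 1 TPM, and of 6 immune markers CD14 (2.04 and 2.80 TPM) and CD68 (at 13.3 TPM with DMSO) did. Among the genes compared, 53.8% overlap another listed gene on either strand or have several loci, and since the sources used here do not give the use of strand in counting, their values are less certain. Those among the genes described are named at the end of a paragraph. In this one they include KRT7, KRT8, KRT18 and VIM.

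Several mRNAs of secreted signals were far higher with DHT. ADM, which encodes the vasodilator peptide adrenomedullin, stood at 3.57 TPM with DMSO and 408 TPM with DHT, a log2 fold of 6.48. CXCL3, a chemokine that draws neutrophils, was listed at 0 with DMSO and reached 27.8 TPM with DHT. CXCL8, the chemokine interleukin-8, stood at 2.32 and 62.9 TPM (4.27), and CSF2, the growth factor of granulocytes and macrophages, at 1.41 and 47.9 TPM (4.34). These values put 3 chemoattractant or myeloid growth factor mRNAs from near 0 to between 27.8 and 62.9 TPM. Of 22 chemokines and cytokines compared, 9 were 2-fold higher and 1 lower, beside 4.05% and 16.0% of all genes, with a median fold of 0.79 (13 higher and 1 lower after centring). CCL26 and the cytokine IL11 were also higher, at 4.41 and 14.1 TPM and at 9.08 and 26.5 TPM. TNFSF10, the death ligand TRAIL, went the other way, from 10.9 to 3.43 TPM. LIF, the most abundant cytokine of the list, differed little, at 107 and 128 TPM. CSF2 overlaps another listed gene or has several loci.

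Among secreted growth factors, 6 of 32 were 2-fold higher and 6 lower (7 higher and 1 lower after centring; median 0.07). Each count was 18.8%, beside 4.05% of all genes higher and 16.0% lower, so the lower share was near that of all genes. FGF18 was at 0.392 and 11.3 TPM, and HBEGF, a ligand that is shed to activate the EGF receptor, at 14.1 and 88.7 TPM (2.57). BMP4, a morphogen of the TGF-beta superfamily, was at 65.4 and 18.6 TPM (-1.76), the WNT antagonist DKK1 at 439 and 181 TPM, THBS1 (thrombospondin-1) at 682 and 309 TPM and TGFB2 at 16.9 and 7.08 TPM, all 2-fold lower as deposited, whereas DKK1, THBS1 and TGFB2 did not reach 2-fold after centring. CYR61, a matricellular YAP target and the most abundant of the list, stood at 698 and 521 TPM. TGFB2 and CYR61 overlap another listed gene or have several loci.

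Receptors differed by member. Of 36 other growth factor and cytokine receptors 2 were higher and 8 lower, with a median of -0.55 (2 higher and 1 lower after centring). PLAUR, the urokinase receptor, was higher at 134 and 373 TPM (1.47). FGFR2 stood at 31.3 and 10.8 TPM, the thrombin receptor F2R at 123 and 46.8 TPM, the insulin receptor INSR at 10.3 and 3.36 TPM and the interferon receptor chain IFNAR1 at 24.3 and 9.04 TPM. AXL, the most abundant receptor of the list, was at 712 and 416 TPM, and EGFR at 116 and 74.1 TPM (-0.64). In the EGF receptor family and its ligands, HBEGF was the member 2-fold higher among 6 compared, and ERBB2 stood at 38.9 and 19.3 TPM, just inside 2-fold. F2R, IFNAR1, EGFR and ERBB2 overlap another listed gene or have several loci.

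Immediate early transcription factors had some of the largest folds of the comparison. EGR1, a zinc finger factor of the early growth response family, stood at 2.62 TPM with DMSO and 2059.7 TPM with DHT, a log2 fold of 9.15, the highest of all coding genes with 1 locus and no overlap at a mean of at least 5 TPM. FOS, the AP-1 subunit that pairs with JUN, was at 0.840 and 252 TPM (7.11), FOSB at 1.78 and 88.6 TPM (5.01) and JUN at 82.7 and 1575 TPM (4.23). ATF3, a stress-induced bZIP factor, was at 5.20 and 161 TPM, JUNB at 34.2 and 199.9 TPM and the small MAF protein MAFF at 40.9 and 229.8 TPM. 8 of 15 AP-1 genes passed 2-fold upwards and 0 downwards, with a median fold of 1.38 and the same count after centring. FOSL1, already abundant in these cells, differed less, at 964 and 1398 TPM (0.54). In 8505C the folds of EGR1, FOS, FOSB and JUN were -0.41, -0.13, -0.11 and 0.10. JUN and ATF3 overlap another listed gene or have several loci.

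The EGR, NR4A and IER list had 9 of 16 members higher and 1 lower (median 1.90, and in 8505C -0.02). NR4A1, an orphan nuclear receptor, stood at 2.60 and 108 TPM (4.92) and NR4A2 at 1.57 and 14.5 TPM. EGR2 was at 0.0820 and 12.5 TPM, CSRNP1 at 8.63 and 91.9 TPM and IER2 at 91.9 and 495 TPM. Together the list grew from 717 to 3273 TPM, and most of that gain was EGR1. ARC, an early gene best known from neurons, was listed at 0 with DMSO and reached 7.79 TPM with DHT. NR4A1 and ARC overlap another listed gene or have several loci.

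In other factor families some members were higher. 6 of 16 KLF and SP genes were higher and 2 lower (6 higher and 0 lower after centring): KLF4 stood at 5.37 and 48.1 TPM, KLF10 at 40.6 and 115 TPM and KLF6 at 57.5 and 391 TPM (2.74), whereas SP1 was at 30.6 and 13.2 TPM. KLF6 is one of the few genes that were 2-fold higher in 8505C too, with a fold of 1.95 there. Of 17 MYC, MAX and ID factors 6 were higher and 1 lower, with the same counts after centring. MYC was at 125 and 614 TPM (2.28), HES1, a NOTCH target that represses neurogenic genes, at 15.5 and 173 TPM, and the MYC antagonists MXD1 and MNT at 3.58 and 19.5 TPM and at 21.7 and 7.01 TPM, one higher and the other lower. ID2 was higher at 10.3 and 51.4 TPM and ID1, which is more abundant, stood at 591 and 314 TPM. Among 17 clock genes, 5 were higher and 3 lower (6 higher and 1 lower after centring): BHLHE40, a repressor of the clock that is also induced by hypoxia, was at 33.3 and 1728 TPM (5.66), NFIL3 at 10.8 and 149.6 TPM and PER1 at 2.16 and 24.8 TPM, while CLOCK stood at 8.31 and 2.18 TPM and DBP at 9.21 and 2.88 TPM. DBP did not reach 2-fold after centring. SP1, BHLHE40, PER1 and DBP overlap another listed gene or have several loci.

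**Figure D2:**
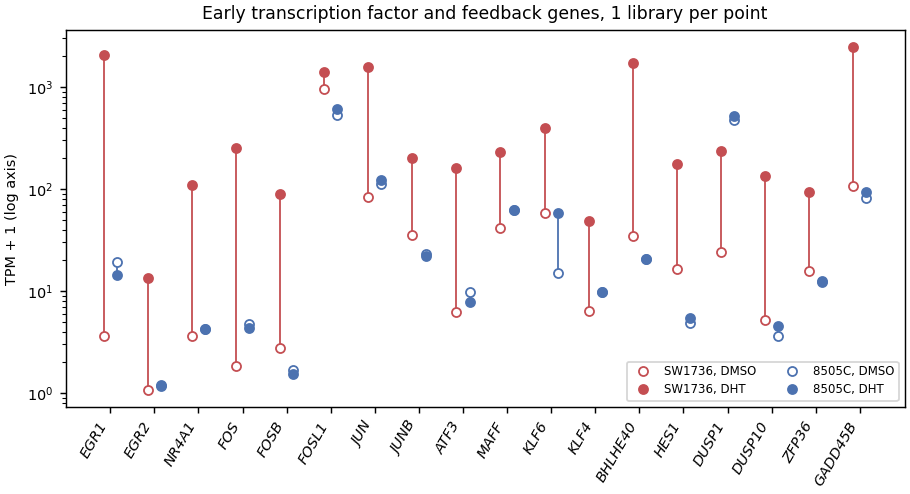
Pairs of points give TPM + 1 (log axis) of early transcription factor and feedback genes, with open points for DMSO and filled points for DHT, 1 library per point, for SW1736 and for 8505C. EGR1 runs from 2.62 to 2059.7 TPM in SW1736, whereas in 8505C the open and filled points of EGR1, FOS and FOSB lie close to each other.

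Inhibitors that act on the same signals were higher alongside the early factors. 11 of 24 MAP kinase feedback genes passed 2-fold upwards and 1 downwards (median 0.86; 13 higher and 0 lower after centring). DUSP10, a phosphatase of JNK and p38, stood at 4.20 and 133 TPM (4.68), DUSP8 at 4.48 and 77.6 TPM (3.84), DUSP1 at 23.1 and 235 TPM (3.29) and DUSP2 at 4.18 and 44.05 TPM. ERRFI1, an inhibitor of the EGF receptor, was at 61.6 and 278 TPM and RGS2, a brake on G protein signals, at 0.598 and 15.5 TPM. CCND1, cyclin D1, an output of ERK and the most abundant of the list, was not among them, at 586 and 359.8 TPM. GEM, a small GTPase that restrains calcium channels, stood at 2.38 and 173 TPM (5.69), RHOB at 28.8 and 248 TPM, RASD1 at 0.817 and 13.6 TPM and RND3 at 105 and 717 TPM. RHOA stayed at 612 and 601 TPM. DUSP10, DUSP8, DUSP2 and RGS2 overlap another listed gene or have several loci.

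NF-kB feedback showed the same direction. 6 of 21 members were higher and 0 lower (7 higher and 0 lower after centring). NFKBIA, the inhibitor that holds NF-kB in the cytoplasm, was at 45.7 and 266 TPM (2.51), TNFAIP3 (A20, a ubiquitin editor that ends the signal) at 2.11 and 38.7 TPM, NFKBIZ at 5.50 and 23.3 TPM and RELB at 13.9 and 45.05 TPM. In the SOCS and TGF-beta feedback list the count was 3 higher and 2 lower of 18 (4 higher and 0 lower after centring): SMAD7, which blocks the TGF-beta receptor, was at 6.39 and 51.1 TPM, SOCS1 and SOCS3 at 3.49 and 12.9 TPM and at 11.5 and 36.5 TPM, and SOCS4 at 11.8 and 4.08 TPM. Among 31 genes of AU-rich element binding and mRNA decay, 3 were higher and 5 lower (4 higher and 0 lower after centring), a lower share near that of all genes. ZFP36 (tristetraprolin), which directs decay of early mRNAs, stood at 14.7 and 92.03 TPM and ZFP36L1 at 172 and 704 TPM. The deadenylase subunits CNOT1 and CNOT6 were at 94.5 and 42.2 TPM and at 29.8 and 11.9 TPM, short of 2-fold after centring. TNFAIP3, NFKBIZ, SOCS1 and CNOT1 overlap another listed gene or have several loci.

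Promoter sequence was read for the coding genes with a RefSeq entry (GRCh38.p14; 250 bases before to 50 after the start, 1 window per gene), which matched 9405 of the 11318 coding genes compared, 107 of the 131 at least 4-fold higher and 1519 of the 1823 at least 2-fold lower. The windows shown are those of the highest-fold genes that hold a given motif, with the motif in capitals, because they let the sequence be set beside the values above. Serum response factor binds the CArG box, heat shock factor the heat shock element, and CREB and ATF proteins the cyclic AMP response element (CRE).
EGR1, CArG box, plus strand of chr5:138465229-138465528: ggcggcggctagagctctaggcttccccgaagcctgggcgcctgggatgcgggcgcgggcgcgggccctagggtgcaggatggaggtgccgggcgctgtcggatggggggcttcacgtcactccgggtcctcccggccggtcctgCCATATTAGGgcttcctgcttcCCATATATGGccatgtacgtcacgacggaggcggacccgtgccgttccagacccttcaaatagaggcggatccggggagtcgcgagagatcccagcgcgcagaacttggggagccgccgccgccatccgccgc
HSPA6, heat shock element, plus strand of chr1:161524290-161524589: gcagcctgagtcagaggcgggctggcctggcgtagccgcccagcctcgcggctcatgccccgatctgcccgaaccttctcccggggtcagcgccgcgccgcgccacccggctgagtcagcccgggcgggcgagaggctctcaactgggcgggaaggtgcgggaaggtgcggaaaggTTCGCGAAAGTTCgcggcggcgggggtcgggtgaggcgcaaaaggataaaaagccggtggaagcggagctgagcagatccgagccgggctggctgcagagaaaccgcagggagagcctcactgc
FOS, TATA box, plus strand of chr14:75278578-75278877: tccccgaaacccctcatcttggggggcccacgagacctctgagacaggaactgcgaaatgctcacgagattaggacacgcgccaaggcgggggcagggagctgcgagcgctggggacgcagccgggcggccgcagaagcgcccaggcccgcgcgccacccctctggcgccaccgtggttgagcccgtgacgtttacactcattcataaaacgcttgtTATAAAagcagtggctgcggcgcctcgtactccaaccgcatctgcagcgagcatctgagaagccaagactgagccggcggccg
ADM, TATA box, plus strand of chr11:10304823-10305122: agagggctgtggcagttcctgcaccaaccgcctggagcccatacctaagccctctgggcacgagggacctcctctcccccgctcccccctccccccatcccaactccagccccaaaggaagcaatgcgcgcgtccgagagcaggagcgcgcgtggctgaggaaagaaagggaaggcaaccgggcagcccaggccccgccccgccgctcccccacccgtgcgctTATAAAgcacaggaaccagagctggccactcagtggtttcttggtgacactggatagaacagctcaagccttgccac
PPP1R15A, CRE, plus strand of chr19:48872171-48872470: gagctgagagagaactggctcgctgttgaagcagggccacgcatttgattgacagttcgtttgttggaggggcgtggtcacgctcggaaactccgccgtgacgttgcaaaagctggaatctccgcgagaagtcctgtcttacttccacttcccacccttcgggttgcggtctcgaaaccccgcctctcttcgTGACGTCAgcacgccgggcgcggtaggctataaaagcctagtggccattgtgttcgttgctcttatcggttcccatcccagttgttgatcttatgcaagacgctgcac
DUSP8, CRE, minus strand of chr11:1572222-1572521: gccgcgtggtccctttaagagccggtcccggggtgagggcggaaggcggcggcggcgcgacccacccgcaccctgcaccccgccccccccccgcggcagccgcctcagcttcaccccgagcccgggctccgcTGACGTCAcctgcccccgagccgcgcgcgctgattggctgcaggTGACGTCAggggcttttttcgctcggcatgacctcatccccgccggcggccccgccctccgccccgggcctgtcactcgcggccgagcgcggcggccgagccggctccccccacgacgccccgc

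EGR1 held 2 CArG boxes at -105 and -83 from the start, DUSP8 held 2 CREs at -118 and -74, and PPP1R15A held 1 at -58. The TATA boxes of FOS and ADM lay at -33 and -27, and the heat shock element of HSPA6 at -74. As a description of the windows, the TATA box (TATAAA or TTTATA, both strands) was present in 22.4% of the 107 genes at least 4-fold higher, 4.54% of those at least 2-fold lower, 5.42% of all coding genes compared and 3264 of 27305 RefSeq promoters. The CRE (TGACGTCA) was in 6.54%, 3.09%, 3.47% and 1.98% of these same sets, the AP-1 site (TGACTCA or TGAGTCA) in 6.54%, 2.37%, 2.78% and 4.92%, and the CArG box in 3.74%, 0.724%, 1.03% and 1.29%. The genes at least 4-fold higher with this exact CRE in the window were PPP1R15A, DUSP8, DUSP1, HIST1H4E, HIST1H2BM, MAFF and CCNL1. The heat shock element was in 5 of 68 promoters of the chaperone lists (7.35%), beside 0.266% of all coding genes compared. Of the 8 chaperone genes that were 2-fold higher 1 held it, HSPA6. The hypoxia response core was in 28.0% of genes at least 4-fold higher and 27.4% of all coding genes compared, and the antioxidant response element in 16 of 107 and 15.2%. These are matches of fixed letter patterns, not measured binding. Altered forms of a site and sites outside the window were not counted, so a gene without a match may still hold one.

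A few inducible heat shock chaperones were far higher with DHT. HSPA6, a strictly inducible HSP70, stood at 0.365 TPM with DMSO and 242 TPM with DHT (7.47), and its near-identical pseudogene HSPA7 at 0.0872 and 55.5 TPM. The inducible HSP70 pair HSPA1A and HSPA1B, which are nearly identical and cannot be separated with certainty, stood at 84.3 and 1400.5 TPM and at 153 and 2555 TPM, folds of 4.04 and 4.05. DNAJB1, their HSP40 partner, was at 202 and 1691 TPM (3.06), BAG3, a nucleotide exchange factor, at 187 and 531 TPM, and CRYAB, a small heat shock protein, at 0.545 and 60.6 TPM (5.32). The constitutive HSPA8 stayed at 2005 and 2159 TPM, HSP90AA1 at 2349 and 1816 TPM and HSPB1 at 1487 and 2017 TPM. By list, 4 of 14 HSP70 genes were higher and 1 lower, 4 and 6 of 44 HSP40 genes and exchange factors, 1 and 1 of 18 HSP90, small heat shock and HSF genes, and 0 and 0 of 14 chaperonin and prefoldin genes. After centring these counts were 4 and 0, 5 and 1, 1 and 0, and 1 and 0. The list medians ran from -0.35 to -0.10. HSPA6, HSPA1A, HSPA1B, DNAJB1 and CRYAB stood far above the list medians, but they were named for their large folds. HSP90AA1 and HSPB1 had folds of -0.37 and 0.44. HSPA6, HSPA7, HSPA1A, HSPA1B, CRYAB, HSPA8 and HSP90AA1 overlap another listed gene or have several loci.

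Several genes at the hub of the integrated stress response were higher. CEBPB stood at 8.37 and 318 TPM (5.09), DDIT3 (CHOP, a death-linked bZIP factor) at 14.6 and 116 TPM (2.90), and PPP1R15A (GADD34, which brings a phosphatase to eIF2) at 96.9 and 1417 TPM (3.86). DDIT4, an inhibitor of mTORC1, was at 7.22 and 276 TPM (5.07), SESN2 at 7.93 and 31.6 TPM and SLC3A2, a chain of amino acid exchangers, at 259.9 and 858 TPM. 6 of 35 members were higher and 1 lower (median 0.14; 12 higher and 1 lower after centring). In the endoplasmic reticulum's own unfolded protein list 2 of 35 were higher and 3 lower (4 higher and 0 lower after centring), shares near or below those of all genes as deposited. HSPA5 (BiP), the main chaperone of the reticulum, was at 540.2 and 1873 TPM (1.79) and EIF2AK3 (PERK), an eIF2 kinase, at 10.1 and 23.2 TPM, but XBP1 stood at 89.6 and 42.4 TPM, SEL1L at 32.3 and 11.7 TPM and CALR at 1962 and 1835 TPM. CEBPB, DDIT3, PPP1R15A, SESN2, EIF2AK3, SEL1L and CALR overlap another listed gene or have several loci.

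The oxidative stress genes did not move as a group. HMOX1, heme oxygenase-1, stood at 28.2 TPM with DMSO and 619 TPM with DHT (4.41), while a few other NRF2 targets were lower: TXNRD1, thioredoxin reductase, at 808 and 313 TPM (-1.36), SLC7A11, the cystine importer, at 18.5 and 5.34 TPM (-1.62), AKR1B10 at 10.6 and 2.92 TPM and AKR1C3 at 10.99 and 4.28 TPM. Of 35 targets 2 were higher and 4 lower, and 2 and 2 after centring, when TXNRD1 and AKR1C3 did not reach 2-fold. The lower share, 11.4%, was below the 16.0% of all genes. The list median of -0.07 was above the -0.43 of all genes. NQO1, a quinone reductase, stood at 352 and 327 TPM. FTH1, ferritin heavy chain, was at 3276 and 4256 TPM, and IREB2, an iron regulatory protein that represses ferritin translation, at 21.6 and 6.77 TPM. The metallothionein and zinc transport list had 0 higher and 2 lower members of 15 (0 higher and 1 lower after centring), with MT2A at 4463 and 5358 TPM and MT1X at 130.4 and 181 TPM. CYP1B1, a cytochrome P450 induced by the aryl hydrocarbon receptor, was among the lowest folds, at 23.7 and 3.87 TPM (-2.34), while TIPARP, another target of that receptor, stood at 44.5 and 107 TPM. TXNRD1, SLC7A11, NQO1, FTH1, MT2A, MT1X and TIPARP overlap another listed gene or have several loci.

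Genes known from low oxygen were often higher. 13 of 35 passed 2-fold upwards and 1 downwards, beside 4.05% and 16.0% of all genes, with a median of 0.34 in SW1736 and -0.08 in 8505C (15 higher and 1 lower after centring in SW1736). Besides ADM and DDIT4, NDRG1 stood at 9.31 and 194 TPM (4.24), the glucose carrier SLC2A3 at 11.4 and 192 TPM (3.96), the carbonic anhydrase CA9 at 3.07 and 18.2 TPM and ANKRD37 at 2.69 and 15.7 TPM. Among 24 glycolytic genes 5 were higher and 0 lower (6 higher and 0 lower after centring): HK2, hexokinase 2, was at 25.6 and 173 TPM, PFKFB3, which makes the activator of phosphofructokinase, at 68.96 and 299.96 TPM, and ENO2 at 26.8 and 66.2 TPM. The abundant enzymes differed less, with GAPDH at 6313 and 7857 TPM (0.32) and PKM at 2569 and 1651 TPM (-0.64). The 75 nuclear genes of oxidative phosphorylation had a median fold of 0, above that of all genes, with 0 higher and 2 lower (1 higher and 1 lower after centring). NDUFC2 stood at 82.9 and 21.7 TPM, while the readthrough NDUFC2-KCTD14, which shares its exons, was listed at 0 with DMSO and reached 23.6 TPM with DHT. Cholesterol synthesis had 1 higher of 28, INSIG1 (14.7 and 43.5 TPM). Amino acid transporters had 1 higher, SLC3A2, and 6 lower of 21 (1 higher and 1 lower after centring). The glutamine carrier SLC38A1, at 77.4 and 33.03 TPM, was among those short of 2-fold after centring. ANKRD37, PFKFB3, NDUFC2, NDUFC2-KCTD14 and SLC38A1 overlap another listed gene or have several loci.

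Growth arrest genes of the GADD45 family were all high with DHT. GADD45B stood at 106 TPM with DMSO and 2442 TPM with DHT (4.51), GADD45A at 86.8 and 775 TPM (3.14) and GADD45G at 0.393 and 24.04 TPM (4.17). CDKN1A (p21), which blocks cyclin-dependent kinases, stood at 18.6 and 132 TPM (2.76). Of 32 genes listed as p53 targets, 7 were higher and 4 lower (median -0.05; 9 higher and 1 lower after centring), among the lower ZMAT3 at 11.9 and 3.35 TPM. Several of the higher members are also targets of ATF4, NF-kB or stress kinases. In the BCL2 family 3 of 18 genes were higher and 1 lower (5 higher and 1 lower after centring). The pro-apoptotic BBC3 (PUMA) stood at 5.62 and 17.9 TPM, PMAIP1 (NOXA) at 24.1 and 70.2 TPM and BNIP3 at 106 and 259 TPM, and the lower member was MCL1, an anti-apoptotic protein with short-lived mRNA, at 114 and 40.4 TPM (-1.47). BAX, the most abundant, stood at 239.8 and 255 TPM. GADD45A, CDKN1A, BBC3, MCL1 and BAX overlap another listed gene or have several loci.

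Genes of homologous recombination were often lower. 19 of 40 Fanconi and homologous recombination genes were at least 2-fold lower and 0 higher, with a median of -0.96, and 8 stayed lower after centring (4.50% of all genes did). XRCC2, a recombination gene, stood at 35.1 and 7.16 TPM (-2.15), BRCA1 at 32.6 and 9.20 TPM (-1.72), FANCM at 9.03 and 1.74 TPM and the checkpoint kinase ATR at 14.2 and 3.89 TPM. UBE2T, a small E2 enzyme and the most abundant member, was at 115 and 75.1 TPM, less far down. Among 52 DNA replication genes 11 were lower and 0 higher (0 higher and 3 lower after centring), 21.2% lower beside 16.0% of all genes. GINS1, part of the replicative helicase, stood at 69.1 and 17.2 TPM (-1.94), MCM6 at 98.5 and 41.2 TPM, and PCNA, the sliding clamp, at 881 and 434 TPM (-1.02). Nucleotide and base excision repair had 4 lower of 36, or 11.1%, below the share of all genes, and 0 after centring, with PARP1 at 192 and 85.96 TPM and APEX1 at 261 and 258 TPM. Of 27 G1 regulators 8 were lower and 2 higher (2 higher and 4 lower after centring): CCNE2 was at 33.8 and 8.99 TPM, E2F2 at 9.80 and 2.28 TPM, RBL1 at 48.4 and 14.1 TPM and CDC25A at 24.7 and 9.16 TPM. UBE2T, PCNA, PARP1, CCNE2 and E2F2 overlap another listed gene or have several loci.

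Several mitotic genes were lower, to unequal degrees. ASPM, a spindle pole protein, stood at 50.01 and 7.14 TPM (-2.65), CENPF at 92.4 and 19.5 TPM (-2.18), the kinetochore scaffold CASC5 (KNL1) at 23.1 and 4.59 TPM and the proliferation marker MKI67 at 249.7 and 76.6 TPM (-1.69). CDC20, the activator of the anaphase-promoting complex, stood at 500.4 and 549 TPM (0.13). Counts of lower genes were 16 of 56 kinetochore and mitotic regulators, 11 of 31 kinesins, 23 of 57 centrosome genes and 15 of 25 cohesin, condensin and SMC genes, with 0 higher in each. After centring 7, 2, 7 and 1 were lower, beside 4.50% of all genes, so the cohesin and kinesin counts were then near the share of all genes. KIF20B stood at 64.4 and 15.1 TPM, KIF11, the motor that separates spindle poles, at 124 and 50.3 TPM, the centriole gene HYLS1 at 32.4 and 3.48 TPM, AKAP9 at 20.6 and 4.61 TPM, and the cohesin subunit SMC3 at 156 and 65.6 TPM. PTTG1 (securin), the most abundant of the cohesin list, was at 441 and 380.3 TPM. Members of the mitotic lists thus differed widely, from ASPM to CDC20. ASPM, CENPF, CDC20 and HYLS1 overlap another listed gene or have several loci.

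Histone genes were often higher. 22 of 47 replication-dependent histone genes passed 2-fold upwards and 0 downwards (median 0.86; 30 higher and 0 lower after centring), against a median of 0.10 in 8505C. HIST1H2BG stood at 2.17 and 77.5 TPM (4.63), HIST1H2BF at 1.96 and 44.8 TPM, HIST1H2AE at 1.10 and 29.7 TPM and HIST1H4E at 6.60 and 66.7 TPM. Most of these mRNAs end in a stem-loop and not in a poly(A) tail, and the libraries were made with an mRNA kit, so the level of tailed transcripts or of carried-over RNA was read, and the near-identical copies share reads. How far each contributed was not tested. Of 47 histone demethylase and methyltransferase genes 3 were higher and 9 lower (4 higher and 4 lower after centring): KDM6B stood at 6.25 and 21.3 TPM, KDM3A at 13.6 and 39.1 TPM and JMJD1C at 34.2 and 93.8 TPM, and SUV39H2 and NSD1 at 26.8 and 7.65 TPM and at 22.1 and 6.68 TPM. As deposited, 6.38% of that list were higher and 19.1% lower, near the 4.05% and 16.0% of all genes. Chromatin remodellers had 21 lower (40.4%) and 2 higher (3.85%) of 52, and 3 higher and 4 lower after centring. ATRX stood at 30.2 and 8.72 TPM, CHD8 at 29.7 and 10.4 TPM and HDAC9, a class IIa deacetylase, higher at 3.82 and 31.6 TPM. HIST1H2BG, HIST1H2BF, HIST1H2AE, HIST1H4E, JMJD1C, CHD8 and HDAC9 overlap another listed gene or have several loci.

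The family of ZNF genes, mostly KRAB zinc finger repressors, was the largest list. 168 of 393 compared were at least 2-fold lower and 6 higher, that is 42.7% lower beside 16.0% of all genes, and 65 stayed lower after centring beside 4.50%. The median fold was -0.91 in SW1736 and -0.06 in 8505C. ZNF260 stood at 11.3 and 1.35 TPM (-2.39), ZNF347 at 12.5 and 1.72 TPM, ZNF608 at 27.3 and 4.74 TPM and ZNF562 at 10.8 and 1.77 TPM. ZNF207, the most abundant and a spindle checkpoint protein, was at 186 and 179.7 TPM. ZNF608 and ZNF207 overlap another listed gene or have several loci.

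Lists of genes that make mRNA had medians of -0.62 (Mediator), -0.40 (elongation and pause), -0.33 (SR and CLK) and -0.50 (hnRNP), beside -0.43 for all genes. Mediator had 6 lower of 32, and 3 after centring (MED9 at 15.5 and 4.25 TPM, MED7 at 20.7 and 6.88 TPM). The elongation and pause list had 5 lower of 36, and 1 after centring: CDK12, the kinase that supports transcription of long genes, stood at 40.9 and 9.98 TPM (-1.93), CDK13 at 29.6 and 13.1 TPM, HEXIM1, an inhibitor of P-TEFb, at 41.7 and 17.7 TPM and MEPCE, which caps 7SK RNA, at 85.7 and 33.7 TPM. CLK1, a splicing kinase, was the SR and CLK member that was higher, at 34.2 and 97.3 TPM, and SRSF1 stood at 120.5 and 58.5 TPM. Of 21 small nucleolar RNA host genes 9 were higher and 1 lower (median 0.44; 10 higher and 1 lower after centring), with EPB41L4A-AS1 at 16.2 and 97.8 TPM, SNHG12 at 42.3 and 197 TPM and ZFAS1 at 258 and 619 TPM, whereas SNHG4 was at 18.3 and 5.90 TPM. Their spliced RNAs are known targets of nonsense-mediated decay. Of 27 named long noncoding RNAs 3 were higher and 3 lower (4 higher and 2 lower after centring), with LINC-PINT at 7.31 and 31.6 TPM, PVT1, a neighbour of MYC, at 6.53 and 21.6 TPM, and NEAT1 at 229 and 260.4 TPM. MEPCE, SRSF1, EPB41L4A-AS1, SNHG12, ZFAS1, SNHG4, LINC-PINT, PVT1 and NEAT1 overlap another listed gene or have several loci.

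Short noncoding RNAs included some of the largest folds. Of 26 snRNA genes compared 18 were 2-fold higher and 4 lower, with a median of 2.71, and of 201 snoRNA genes 59 were higher and 24 lower (median 0.29), beside 341 and 1823 of 11318 coding genes. Summed by family, a grouping made after the values were seen, the spliceosomal U1 rows went from 23.1 to 529 TPM with 7 of 7 rows compared higher, and U5 from 1.47 to 178 TPM with 5 of 5 higher. U2 stood at 3.62 and 30.1 TPM, U4 at 2.22 and 10.8, U11 at 3.86 and 19.3, and U12 went from a listed 0 to 5.93. RNU4ATAC, a part of the minor spliceosome that overlaps another gene, went from a listed 0 to 165 TPM, and RNU5A-1 from a listed 0 to 54.8 TPM. The U8 and U13 nucleolar RNAs stood at 0.253 and 22.1 TPM and at 0.884 and 9.39. All of these are made by RNA polymerase II and matured outside the poly(A) pathway. The 19 listed rows with names that begin with SNORD3, U3 and other nucleolar RNAs together, summed to 296 and 568 TPM. The part of U3 itself in that sum was not separated.

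Of the short RNAs made by RNA polymerase III, the 7SK sum was higher and the sums of the other families were lower as deposited. No row of 7SK, 7SL or the vault RNAs passed 2-fold. The 7SL rows had a median fold of -0.34, above the -0.43 of all genes. U6 stood at 665 and 356 TPM without and with DHT, with 1 of 11 rows higher and 4 lower, U6atac at 19.5 and 8.01, the vault RNAs at 13 and 6.31, and 7SL at 192 and 148. SNAR, a family of short cytoplasmic RNAs, was at 430 and 64.6 TPM, and 7SK, which holds P-TEFb inactive, at 17.9 and 31.8. In 8505C the U1 and U5 sums were 11.2 and 13.2 TPM, and 1.66 and 1.34 TPM. TPM divides by length, so rows of such short RNAs rest on few bases and their values are less certain than those of mRNAs. An mRNA library holds these RNAs only as tailed or carried-over molecules, and how much of either entered each library was not tested. Among the noncoding rows with the lowest folds, MIR614 stood at 342 and 68.8 TPM and MIR25 at 16.1 and 2.07 TPM, and MIR6723 at 76.7 and 1.80 TPM. Such rows lie mostly inside host genes and may hold their reads. SNAR-B1, which gave 420 and 62.2 TPM of the SNAR sums, MIR25 and MIR6723 overlap another listed gene or have several loci.

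**Figure D3:**
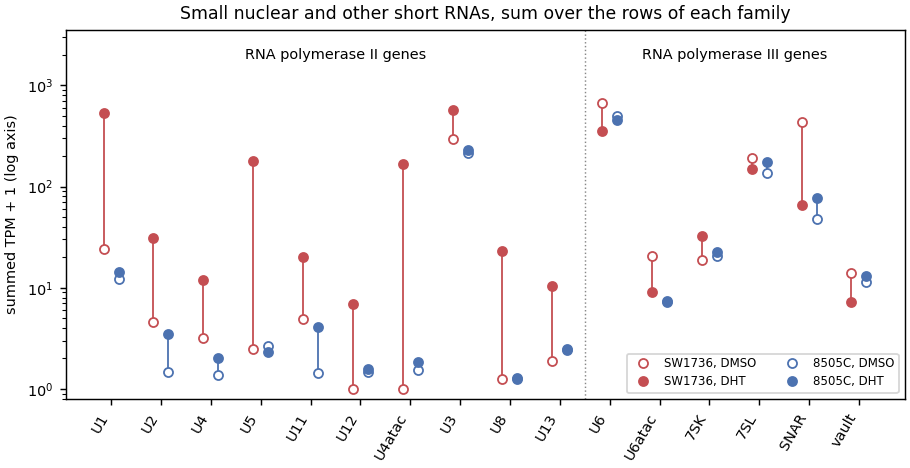
Summed TPM + 1 (log axis) of each family of short RNAs, with open points for DMSO and filled points for DHT, in SW1736 and 8505C. In SW1736 the U1 sum runs from 23.1 to 529 TPM and U5 from 1.47 to 178, while U6 runs down from 665 to 356. The points labelled U3 sum all rows with names that begin with SNORD3, which include other nucleolar RNAs.

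Ribosomal protein mRNAs took a larger part of the TPM total. The 84 cytosolic ribosomal protein genes compared went from 17.2% to 22.6% of TPM with DHT, with a median fold of 0.38 and 1 member past 2-fold, RPL22L1 (26.9 and 56.8 TPM). In 8505C the median was 0.01. RPLP1 stood at 5658 and 8259.6 TPM (0.55), RPS27 at 3599 and 5334 TPM and RPS24 at 5059.6 and 6579 TPM, which put them among the 10 largest gains in TPM together with VIM (8401 and 11431 TPM). RPL7L1 and RPL15 were below the others, at 146 and 81.5 TPM and at 629.7 and 409 TPM. RPSAP58, a copy of RPSA, was the lowest fold of the coding genes named, at 257 and 1.04 TPM (-6.98), but its sequence is shared with RPSA (1065 and 1252 TPM), so its reads may have been assigned between them, and in 8505C its fold was -5.90. RPS27, VIM, RPL7L1, RPL15 and RPSA overlap another listed gene or have several loci.

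The other lists of protein production and turnover had few members 2-fold higher. The 76 mitochondrial ribosomal proteins had 0 higher and 1 lower, the 46 proteasome subunits 0 and 0, and the 20 aminoacyl-tRNA synthetases 0 and 1, with medians of -0.13, -0.17 and -0.36. Ribosome biogenesis had 4 lower of 58, and 1 after centring, with UTP20 at 20.1 and 5.38 TPM and NPM1 at 1591 and 1816 TPM. EIF4A2, an RNA helicase of the cap-binding complex, was higher at 326 and 691 TPM, and the eIF2 kinases EIF2AK4 (GCN2) and EIF2AK2 (PKR) were lower at 71.6 and 33.01 TPM and at 39.98 and 19.2 TPM. Deubiquitinases had 11 lower and 1 higher of 55, the latter OTUD1 (8.47 and 36.4 TPM), and 2 were lower after centring. Nuclear pore and transport genes had 10 lower of 48, among them the exportin XPO1 at 187 and 75.7 TPM, and 0 after centring. As deposited both shares were a little above the 16.0% of all genes. Autophagy and lysosome genes had 5 lower of 58, and 1 after centring, with NBR1 at 66.6 and 26.7 TPM. UTP20 and EIF4A2 overlap another listed gene or have several loci.

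Genes of cell structure differed by family. Among tubulins, TUBB stood at 1835 and 295 TPM (-2.63), the largest loss in TPM of all genes, but it has several loci, and TUBA1B was at 3005 and 2025 TPM and TUBA1A, higher, at 105 and 255 TPM. ACTB stood at 11183 and 10050.2 TPM (-0.15), FLNA at 1256 and 765 TPM and TLN1 at 205 and 78.1 TPM, and of 40 actin, myosin and regulator genes 5 were lower and 0 higher (0 higher and 2 lower after centring). 6 of 17 collagens were lower and 0 higher, with COL12A1 at 159 and 38.9 TPM (-2.0) and COL1A1 at 349.9 and 146 TPM (-1.25). 1 was lower after centring. Integrins and laminins had 3 lower of 24, and 2 after centring, among them ITGAV at 43.7 and 14.97 TPM. ITGB1, at 792 and 432 TPM, was short of 2-fold. Metalloproteinases and inhibitors had 4 lower of 24, and 1 after centring (ADAM10 at 88.98 and 32.8 TPM). As deposited, 12.5% of the actin list, 12.5% of integrins and laminins and 16.7% of metalloproteinases were lower, beside 16.0% of all genes. Those shares were near or below that of all genes, whereas that of the collagens was 35.3%. The transcription factors SNAI1 and SNAI2, which repress CDH1 in epithelial-mesenchymal transition, were higher at 19.2 and 146 TPM and at 10.8 and 85.6 TPM, and the cadherin CDH2 was at 83.9 and 53.3 TPM. YAP and TEAD genes had 9 lower (32.1%) and 2 higher (7.14%) of 28, beside 16.0% and 4.05% of all genes. After centring 2 were higher and 1 lower, so most lower calls depended on the scaling. The higher were ANKRD1 (15.6 and 408 TPM, 4.62) and GADD45B, and TEAD1 itself stood at 71.9 and 24.8 TPM. Of 7 keratins compared none passed 2-fold, and S100A2, a calcium-binding protein, stood at 123 and 255 TPM with a like fold in 8505C (1.15). TUBB, TUBA1B, TUBA1A, TLN1, COL12A1, COL1A1, ADAM10, SNAI2 and S100A2 overlap another listed gene or have several loci.

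Of 38 interferon-stimulated genes 2 were higher (5.26%) and 5 lower (13.2%), shares near the 4.05% and 16.0% of all genes. After centring 4 were higher and 4 lower. IFIT2 stood at 10.4 and 37.4 TPM and IFIT5 at 14.6 and 3.03 TPM, 2 members of the same family on either side. ABC transporters had 1 higher (4.35%) and 2 lower (8.70%) of 23, near and below the shares of all genes. After centring 1 was higher and 1 lower. The efflux pump ABCC1 stood at 33.2 and 17.9 TPM. Other coding genes with the lowest folds included ETAA1, an activator of ATR (13.9 and 1.11 TPM), NANP (16.4 and 2.57 TPM), FAM111B (61.6 and 11.9 TPM), SPCS3, a signal peptidase subunit (34.6 and 7.11 TPM), ZBED5 (43.4 and 9.14 TPM), PLAGL2 (31.4 and 6.46 TPM) and TRIM59 (42.4 and 9.26 TPM). Among genes seen in 1 library only, 14 were listed at 0 with DMSO and had 5 TPM or more with DHT, and 5 the reverse. Several of them are readthrough entries that share exons with their parents, such as SERF2-C15ORF63 (0 and 37.1 TPM) and ISY1-RAB43 (10.3 and 0 TPM), so they do not show that a locus was switched on or off. ABCC1, SERF2-C15ORF63 and ISY1-RAB43 overlap another listed gene or have several loci.

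Over the 70 lists, 46 had a median above that of all genes and 16 above 0. The 30 lists between them lay at or below 0 as deposited and above 0 once centred, so that their direction depends on the scaling. In 24 lists no member was 2-fold higher and in 12 none was lower. The medians of the AP-1, EGR, MAP kinase feedback, chemokine, histone and small nucleolar host lists were among the 16.

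**Figure D4:**
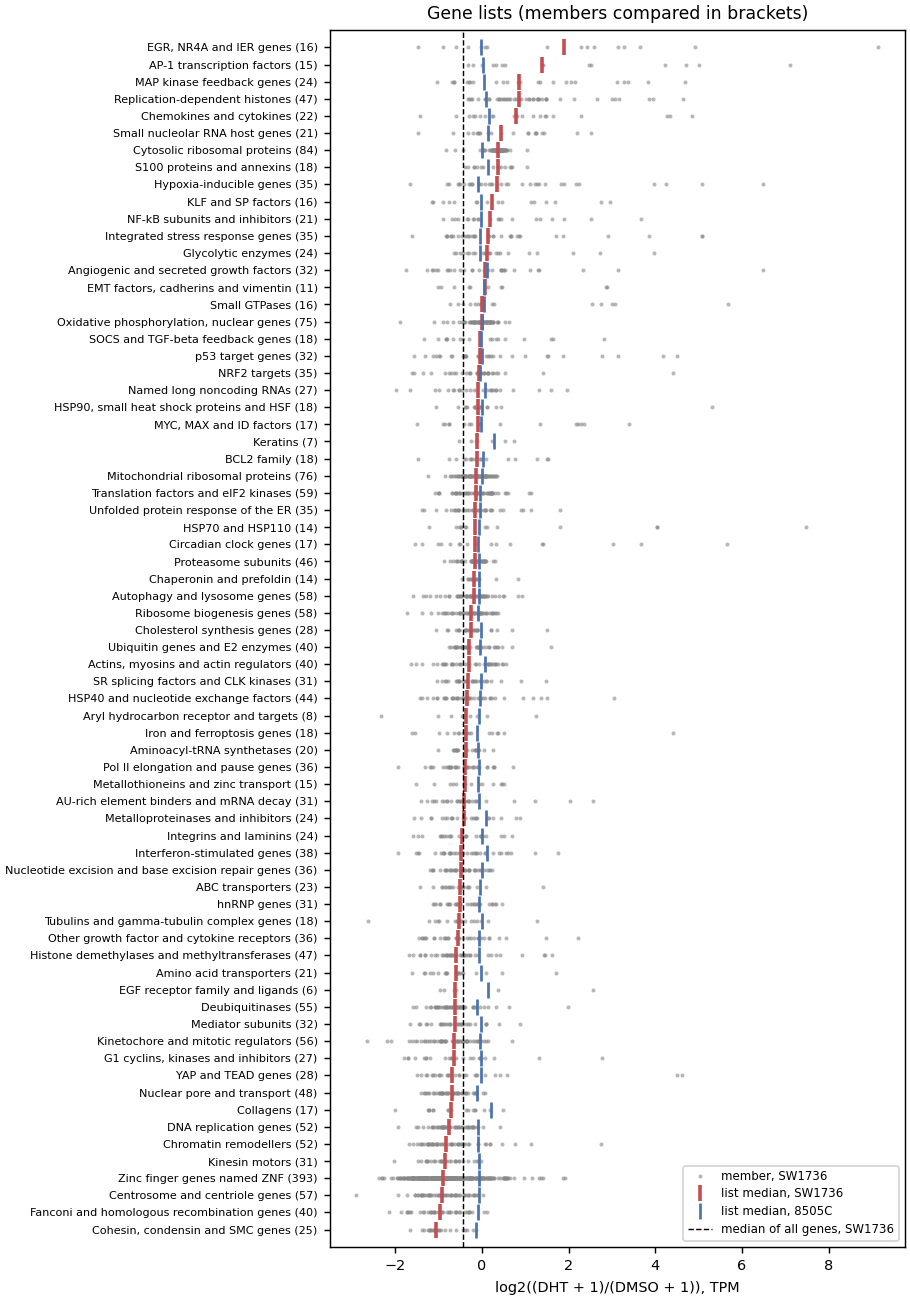
Log2 folds (x) of the members of each gene list (grey points), with the list median in SW1736 (red) and in 8505C (blue); the number of members compared is in brackets and the dashed line is the SW1736 median of all genes, -0.43. Red medians run from 1.90 for the EGR, NR4A and IER genes to -1.06 for the cohesin list, and blue medians stay near 0.

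Folds also followed gene structure, read for 10939 coding genes with 1 row in the tables. The median fold was -0.04 for genes spanning up to 5 kb, -0.21 for 5 to 10 kb, -0.34 for 10 to 20 kb, -0.49 for 20 to 50 kb and -0.69 for 100 to 200 kb, where 27.4% were 2-fold lower, and -0.61 above 200 kb. By the length of the mRNA, the shortest class of 3639 genes (up to 2554 bases) had a median of -0.16, the middle class -0.48 and the longest class (over 4483 bases) -0.74, with 184, 471 and 1116 genes 2-fold lower. In 8505C the same classes had medians of 0.01, -0.03 and -0.08. Within a class of mRNA length the gene's span made less difference: the medians from short to long span were -0.08, -0.28 and -0.17 for short mRNAs and -0.60, -0.73 and -0.80 for long ones. Genes with 21 or more exons had a median of -0.77 and genes with 1 exon -0.35, the latter with 12.3% higher and 22.8% lower. The most abundant 257 genes, over 500 TPM, had a median of 0.22. These measures move together, and the sources used here give no RNA quality values, so the part of each was not tested.

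**Figure D5:**
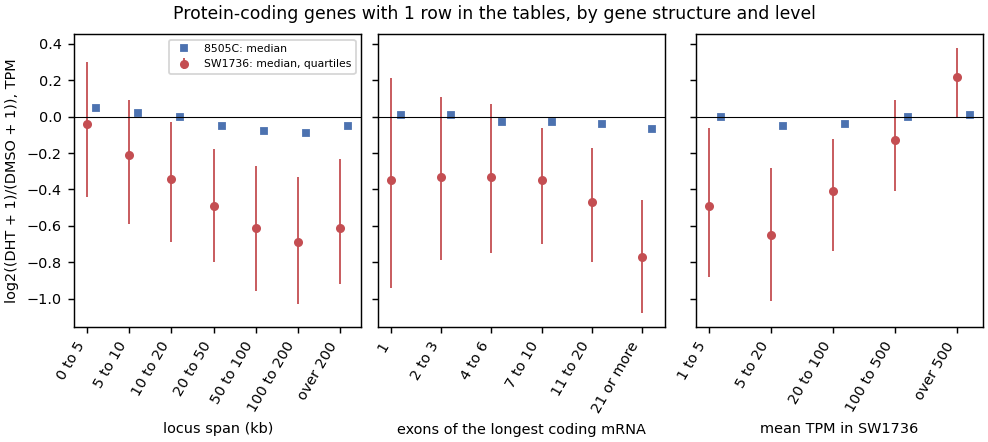
Median log2 fold with quartiles (SW1736, red) and median (8505C, blue) of coding genes, by gene span, number of exons and mean TPM. The SW1736 medians run from -0.04 at up to 5 kb to -0.69 at 100 to 200 kb and by level from -0.65 at 5 to 20 TPM to 0.22 above 500 TPM, while those of 8505C lie between -0.09 and 0.05.

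The lists were therefore also read after subtracting the median fold of the coding genes in the same mRNA length class, an alternative added after seeing the data. The Fanconi and recombination genes then had a median of -0.38 with 3 of 39 members 2-fold lower, and the centrosome genes -0.29 with 3 of 54. The cohesin list had a median of -0.32 with 0 of 25, and the ZNF genes -0.34 with 41 of 386. The kinetochore list had 7 of 55 at a median of -0.40. The lower count of all genes on this scale, out of 10916 coding genes with a length, is given in the last section. It falls as well, so a smaller list count does not by itself show that a list came closer to all genes. No share of all genes stands beside these list counts, lower or higher. The amino acid transporters stood at -0.07 and the collagens at -0.01. On the higher side the hypoxia list had a median of 1.08 with 18 of 35 members 2-fold higher. The MAP kinase feedback list had 1.63 with 13 of 21, and the histones 1.01 with 23 of 44. The 3 class medians all lie below 0, so the subtraction raises every fold and, like centring, can only remove lower calls and add higher ones. Set beside the counts after centring, the lower counts were 8 and 3 for the Fanconi list, 7 and 3 for the centrosome list, 65 and 41 for the ZNF genes and 7 and 7 for the kinetochore list. The higher counts were 15 and 18 for the hypoxia list, 13 and 13 for the feedback list and 30 and 23 for the histones, and the second count of each pair covers only coding members with a length.

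Set beside 8505C, given the same dose for the same time, the SW1736 response was the larger by count. Among the same 12719 genes 65 were 2-fold higher (0.511%) and 36 lower (0.283%) in 8505C, where the median fold was -0.02. Of the 515 genes higher in SW1736 12 were also 2-fold higher in 8505C, and 373 (72.4%) lay within 1.2-fold there. Of the 2037 lower genes 11 were also lower and 1756 (86.2%) lay within 1.2-fold. The genes were chosen by their SW1736 level alone. A gene listed at 0 in both 8505C libraries, such as CSF2 or GADD45G, has a fold of 0 there. Such genes count as within 1.2-fold, which for them does not show a lack of response. KLF6 and S100A2 are among the genes high in both lines. Without replicates, neither the SW1736 folds nor their difference from 8505C could be tested, and a difference between lines cannot be told apart from a difference between single cultures.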

How the data were processed

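Libraries of mRNA were made from total RNA with the Universal Plus mRNA-Seq kit, per the labels' protocols. The submitters' processing notes name bcl2fastq 2.20, StringTie and the hg38 build. Aligner, annotation and StringTie's version were not given in the sources used here. For each library the authors deposited a gene abundance table that lists TPM, FPKM and coverage (mean read depth) at every gene locus, per the file headers. In the deposited tables TPM has a fixed sum of 1000000 per library, whereas FPKM, also deposited, has no fixed sum. The deposited coverage is a signal that is not scaled by library, and its ratio to FPKM gave the depth.

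TPM was summed per gene identifier, and folds were log2 differences with a pseudocount of 1 TPM at a mean of at least 1 TPM. Gene types came from RefSeq (23758 identifiers by symbol, 933 by synonym) and GENCODE 29 (671), and 1123 stayed unmatched, with 0.550% to 0.645% of TPM. With 1 library per group there is no test and no p-value. Gene lists and genes were chosen with earlier results of these data known. Named were the 15 highest and 15 lowest coding genes with 1 locus and no overlap at a mean of at least 5 TPM, the 8 highest and lowest noncoding genes, the 10 largest gains and losses in TPM, genes at 0 in 1 library, cell type markers, and from each list at most 6 members of largest fold and its most abundant one. Some of these genes are not reported here. RPSA and the small RNA families were chosen after their values were seen, as was the subtraction by mRNA length class, whose lengths are from GENCODE 29. Other alternatives were pseudocounts, filters, thresholds, centring, FPKM and a rescaled TPM. All was computed with pandas 2.3.3 and numpy 2.4.6 under Python 3.11.15, and the folds were tested on simulated data.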

Additional observations from a re-analysis of the deposited data

Results flagged for a closer look

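Among the genes compared, 8 were 2-fold apart in opposite directions in the 2 lines. With 1 library for each line and treatment, this difference was not tested. PEA15, which binds ERK and death effector proteins, stood at 441 and 206 TPM in SW1736 without and with DHT (log2 fold -1.10) and at 182 and 435 TPM in 8505C (1.25). PALM2-AKAP2 stood at 23.6 and 86.6 TPM in SW1736 (1.83) and at 55.3 and 1.92 TPM in 8505C (-4.27). MIR221 was at 16.4 and 6.03 TPM (-1.31) against 0.490 and 3.55 TPM (1.61), and SNORD6 at 2.44 and 8.51 TPM (1.47) against 5.65 and 1.85 TPM (-1.22). TP53RK had folds of -1.12 and 1.17, LOC101927027 of -1.46 and 1.02, and FAM156B of -1.21 and 1.93. RGPD5 had a fold of -1.30 in SW1736, and in 8505C it went from a listed 0 to 7.49 TPM. MIR221 and SNORD6 overlap no other listed gene, whereas the other 6 do, and FAM156B and RGPD5 also have several loci, so reads may be divided between copies. After centring on the median gene, the lower folds of PEA15, MIR221, RGPD5, TP53RK and FAM156B in SW1736 were between -0.67 and -0.88, short of 2-fold.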

How the results depend on the processing

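The numbers of genes 2-fold higher and lower, 515 and 2037 in the comparison as reported, moved with the settings. They were 308 and 738 with a pseudocount of 5 TPM, 605 and 2725 with 0.1 TPM, 336 and 1578 at a mean of at least 5 TPM, and 607 and 2097 without a filter. After centring on the median gene they were 821 and 572, on FPKM 473 and 777, and with TPM rescaled without ribosomal protein and noncoding genes 427 and 1545. Coding genes gave 341 and 1823, genes with 1 locus and no overlap 203 and 958, a 1.5-fold limit 813 and 4940, and a 4-fold limit 187 and 77. Less the median of the same mRNA length class, chosen after seeing the data, the lower count was 295, while the higher count stayed within 1.5 times 515. Fewer genes entered under the coding, single-locus and 5 TPM settings. Centring and the length classes add to every fold, so by construction they can only add higher calls and remove lower ones. The cause of the other shifts was not tested. The median fold of all genes was -0.20 on FPKM, -0.36 on the rescaled TPM, and -0.47 and -0.31 with the smaller and larger pseudocount. No named gene's fold changed from 2-fold higher to below 0, or from 2-fold lower to above 0, on FPKM or the rescaled TPM. Centring moved 112 named folds by more than 1.5 times or across 2-fold and left 384 within that range, and FPKM moved 94 and left 402. Counts of higher or lower members within a list moved by over 1.5 times in 67 cases under centring, 49 on FPKM, 48 and 8 with the larger and smaller pseudocount, 16 on the rescaled TPM and 78 less the length class median. No paired analysis was possible because each group is 1 library. The number of reads per library is not known, so how far depth limits low genes could not be given.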
